A study of Mus musculus with 8 samples.

Results

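The collagen genes of the mouse were read in reduced representation bisulfite sequencing (RRBS) libraries of sorted testis cells. They were taken as the autosomal protein-coding genes of the curated RefSeq annotation (GRCm38, the mm10 build) whose symbol is Col, a number, the letter a and a number. There were 42 such genes among 20021 autosomal protein-coding genes, and 2 further members of the family on the X chromosome were not used. RRBS reads CpG-rich DNA after cutting with MspI and bisulfite treatment, and the level of a cytosine is the percentage of its reads that kept a C. The 42 genes, each taken from 1 kb upstream of its start site to its end, held 6359 covered cytosines of the 1290872 in all such genes. Every member was covered, with 10 to 456 cytosines and a median of 130.5.

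Animals of both groups were F1 males of the C3H/HeN strain at postnatal day 6, whose dams drank tap water (control group) or, between gestational days 8 and 18, tap water holding sodium arsenite at 85 ppm (arsenic group). Cells were taken from the dissociated testis with magnetic beads against CD49f (Itga6) and were labelled type A spermatogonia. Each library came from 8 pooled testes, that is, from 4 mice, so the spread between mice cannot be seen. There were 4 libraries a group. The labels do not tie pools to litters, and p-values measure only the spread between these pools. Nothing but the arsenite separated the groups in the labels and methods.

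Read counts summed over CpG cytosines came to 96428439 to 133406260 per library, where a read counts once for each cytosine it spans. Median coverage was 31 to 44, and every cytosine used had at least 10 reads in every library. Values that bear on the cell label come first. Promoters of germ cell genes, which are methylated in somatic cells, averaged 81.2% over the 8 of 12 listed promoters with at least 5 covered cytosines, with 94.9% at Dazl and 80.2% at Ddx4, and the 8 libraries lay between 79.3% and 84.3%. Promoters of maternally methylated imprinted genes, which carry no methylation in male germ cells, averaged 51.7% over 9 covered promoters, with Grb10 at 3.20% as the exception. Among markers of other testis cells 5 of 12 promoters were covered, from 1.2% at Sox9 to 92.8% at Pecam1. These levels go against the label of type A spermatogonia in both groups. Other measures in the paper run with the label. It reports higher Itga6 and Gfra1 mRNA in this fraction than in the fetal fraction, and methylation profiles that clustered by stage. The part of the cell composition in the results on collagen genes was not tested, and the cells are called sorted testis cells here.

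Collagens are the main proteins of the extracellular matrix. A collagen chain holds long runs of triplets, written Gly-X-Y, that begin with glycine, the only residue small enough for the centre of the triple helix, and the Y place is often a proline that is later hydroxylated. In the testis, peritubular cells and Sertoli cells lay down the collagen of the basement membrane on which spermatogonia sit. Collagen genes have many short exons within long introns, and as in most genes the DNA around an active or poised start site is usually free of methylation while the gene body is methylated.

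Stretches of the triplet-coding sequence show what was read. For Col1a1 and Col2a1 (the main chains of the fibrils of bone and of cartilage), Col4a2 (basement membrane) and Col6a2 (beaded filaments), the run of 18 codons within 1 exon that held the most covered cytosines is printed on the coding strand from GRCm38, starting with a glycine codon and with CpGs in capitals.
Col1a1: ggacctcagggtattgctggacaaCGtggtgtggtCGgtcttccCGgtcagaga
Col2a1: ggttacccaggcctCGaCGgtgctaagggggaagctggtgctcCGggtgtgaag
Col4a2: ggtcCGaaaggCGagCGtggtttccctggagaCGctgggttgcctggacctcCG
Col6a2: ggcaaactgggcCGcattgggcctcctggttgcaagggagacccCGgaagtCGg
They lie at chr11:94947901-94947954 (plus strand), chr15:97994868-97994921 (minus), chr8:11425441-11425494 (plus) and chr10:76610650-76610703 (minus). In the Col1a1 stretch the 5 covered cytosines averaged 69.2%, from 60.2% to 76.0% over the 8 libraries. The 5 of Col2a1 averaged 93.6%, the 9 of Col4a2 94.5% and the 3 of Col6a2 88.4%.

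In these sorted cells the coding exons of collagen genes were more highly methylated than their introns. Both were above the mean of all genes when distance from the start site was disregarded. Within 20 kb of start sites the members' introns were below those of all genes, as given further on. The average level over genes with at least 5 covered cytosines was 71.6% ± 0.265 (SD over 8 libraries) in coding exons (37 genes) and 63.7% ± 0.371 in introns (40 genes). Over all autosomal genes these means were 54.4% (9928 genes) and 52.3% (13420 genes). In the 35 members with enough cytosines in both regions, exons exceeded introns by 6.94 percentage points on average (SD over libraries 0.280) and by 7.22 at the median, against 3.99 and 3.97 points over 8365 genes. Exons were higher in 24 members and lower in 11, and they were higher in 58.5% of all genes. With only intron cytosines within 150 bases of a coding exon, the mean differences were 1.05 points in members and 5.20 over all genes.

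With limma, which compared the difference of each gene with its spread over the 8 libraries, 14 members had exons above introns by at least 10 points at an adjusted p of at most 0.05, where 40.7% of all genes tested did. Exons lay below introns by the same rule in 4 members, against 26.7% of all genes. The share of members called above was thus near that of all genes, and the share called below was smaller. The threshold of 10 points parts neighbours that differ little: Col6a6 lay just inside at 10.2 points, and Col24a1 at 9.96 and Col4a2 at 9.73 just outside.

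**Figure D1:**
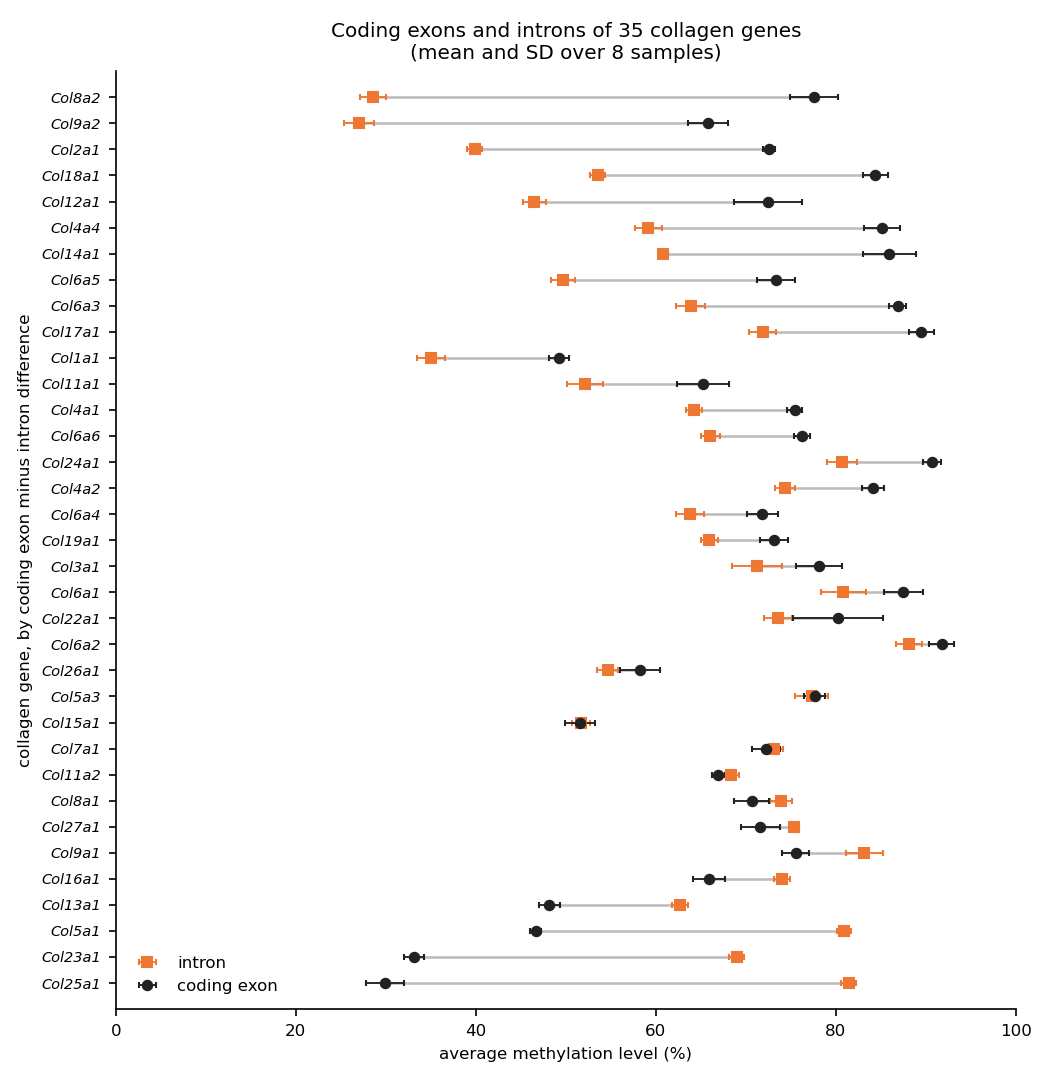
Average methylation level (%) of coding exons (black circles) and introns (orange squares) in the 35 collagen genes with at least 5 covered cytosines in each, as mean and SD over the 8 libraries, ordered by the difference. Exons lie to the right of introns in 24 genes, most of all in Col8a2, and far to the left in Col25a1, Col23a1 and Col5a1.

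In the plot of exon and intron levels by gene, the largest excess of exons over introns was that of Col8a2 (chr4:126286794-126314330), a short-chain collagen of hexagonal networks such as that under the corneal endothelium. Its 33 exonic cytosines averaged 77.5% and its 123 intronic ones 28.6%, a difference of 48.9 points (SE 1.24, limma adjusted p = 5.42e-11). The intron levels of its 4 control libraries were 29.3%, 27.98%, 27.9% and 29.9%, and those of the arsenic libraries 31.0%, 28.7%, 26.4% and 27.7%. Every library had exons above introns by at least 41.9 points.

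Col9a2 followed at 38.7 points (SE 0.850). It encodes a chain of collagen IX, which coats cartilage fibrils, and it averaged 65.8% in exons and 27.0% in introns. Without cytosines within 2 kb of start sites its difference was 20.3 points. With only intron cytosines within 150 bases of a coding exon it was 18.5 points. Next came Col2a1 (chr15:97975602-98004724), the chain of the cartilage fibril, with 72.6% over 74 exonic and 39.9% over 141 intronic cytosines, a difference of 32.7 points (SE 0.483, limma adjusted p = 8.96e-13). Its exon levels were 73.0%, 72.8%, 73.4% and 72.5% in control and 71.5%, 72.2%, 73.3% and 72.0% in arsenic libraries, which overlap. Col18a1 (chr10:77052179-77166530), the multiplexin from which endostatin is released, had 84.4% in exons and 53.5% in introns (30.8 points, SE 0.779). Col12a1, which sits on the surface of fibrils, had 72.5% and 46.5% (26.0 points, SE 1.14), but only 1.05 points at a coverage of at least 20.

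At the other end, 3 of the 4 transmembrane collagens had exons far below introns. Without cytosines within 2 kb of start sites the direction turned in Col23a1 and Col13a1, and Col25a1 had too few exonic cytosines left. Col25a1 (chr3:130180845-130599883), made in neurons, had 29.9% over only 6 exonic cytosines and 81.4% over 219 intronic ones, a difference of -51.5 points (SE 0.918, limma adjusted p = 3.50e-12). Col23a1 differed by -35.8 points (33.1% and 69.0%, but 15.1 points at a coverage of at least 20) and Col13a1, found at the neuromuscular junction, by -14.6 points (48.2% and 62.7%). Col5a1, the fibrillar chain that limits fibril width, differed by -34.3 points (46.7% and 80.9%). It too turned without cytosines within 2 kb of start sites, to 7.09 points. Col16a1 differed by -8.10 points, which is under the threshold of size, and by 1.33 points at a coverage of at least 20. The transmembrane member that went the other way was Col17a1 of the hemidesmosome, with 89.5% in exons and 71.9% in introns.

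Members named for their place in the matrix lay between these ends. Col1a1 (chr11:94936224-94953042), the chain of bone and skin fibrils, had the lowest intron level of the fibrillar members that were tested, 35.01% over 41 cytosines, and its exons averaged 49.2% over 58 (14.2 points, SE 0.574). Without 2 kb around start sites Col1a1 differed by 7.43 points, under the threshold of size. With only intron cytosines within 150 bases of a coding exon it differed by -5.09 points. The exon levels of its control libraries were 48.0%, 49.96%, 50.9% and 49.9%, and those of the arsenic libraries 48.1%, 50.1%, 48.3% and 48.6%. Col1a2, its partner chain, had 9 covered exonic cytosines at 83.2% and no covered intronic one. Col3a1 of elastic tissues had 78.1% and 71.2% (6.88 points, SE 1.58), with a difference between 0.296 and 14.7 points in single libraries. Of the basement membrane chains, Col4a1 had 75.4% and 64.3% (11.2 points, SE 0.496) and Col4a2 84.1% and 74.4%. With only introns near exons they differed by 6.69 and 0.570 points, both under the threshold of size. Col6a1 and Col6a2 had high levels throughout, 87.5% and 91.7% in exons and 80.8% and 88.1% in introns. Col7a1, the anchoring fibril under the epidermis, had 72.2% and 73.1%, a difference of -0.873 points that did not pass the test (limma adjusted p = 0.225). Its sign and its test depended on the setting, with -5.34 points without 2 kb around start sites (limma adjusted p = 4.81e-05) and 5.20 points weighted by coverage (limma adjusted p = 0.000169).

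By class, exons were higher in 6 of 6 beaded filament members tested, in 6 of 9 fibrillar, 4 of 5 network and 5 of 7 fibril-associated (FACIT) members. They were higher in 1 of 4 transmembrane and 1 of 2 multiplexin members, and in 58.5% of all genes. The calls above introns were spread over these classes, with 3 each in the fibrillar, network, beaded filament and FACIT classes. The transmembrane and multiplexin classes had 1 each, and 40.7% of all genes were called. The calls below were 3 transmembrane members and 1 fibrillar member, where 26.7% of all genes were called. These counts are descriptions of small classes, and no difference between classes was tested. The 7 members left out of the comparison were Col1a2, Col4a3, Col5a2, Col9a3, Col10a1, Col20a1 and Col28a1, each with fewer than 5 covered cytosines in exons or introns.

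The difference depended on where in the gene the cytosines lay. Within 1 kb of a start site the members' coding cytosines averaged 11.9% (128 cytosines of 15 genes) and their intronic ones 4.97% (318 cytosines). From 1 to 2 kb exons were lower, at 7.98% (16 cytosines of 2 genes) against 25.6% in introns (91 cytosines of 12 genes). From 2 to 5 kb exons were at 77.2% and introns at 55.8%, from 5 to 20 kb at 76.7% and 63.1%, and beyond 20 kb at 81.4% and 73.2%. In the same order of distance, introns of all genes were at 6.14%, 29.6%, 58.4%, 70.3% and 71.5%. Coding exons of all genes were at 10.2%, 34.1%, 57.3%, 71.6% and 78.6%. The members' introns were thus above those of all genes only beyond 20 kb. With cytosines within 2 kb of start sites left out, the mean difference was 10.6 points over 34 members, which had averaged 8.66 points before (Col25a1 dropped out). It rose in 11 members and fell in 14, and exons were higher in 29, where they were higher in 66.5% of all genes. By the same rule as before 16 were called above, where 35.5% of all genes were, and 2 below, where 14.7% were. Over all genes 5837 were left, whose mean was 9.34 points before this step and 4.76 after it. The members with exons far below introns changed direction: Col23a1 moved to 14.3 points, Col13a1 to 19.4 and Col5a1 to 7.09, while Col25a1 had no longer enough exonic cytosines. Col15a1 and Col11a2, which had differed little, also changed sign, to 11.9 and 2.63 points.

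With only intron cytosines within 150 bases of a coding exon, the mean difference was 1.05 points over 29 members and 5.20 points over all genes. The same genes had averaged 6.61 and 3.88 points before. The medians in this setting, however, were 2.99 and 1.76 points. Exons were higher in 18 members, where they were higher in 59.1% of all genes. Col5a1 (-37.4 points) and Col23a1 (-33.2 points) had the lowest values. Members called above numbered 6, where 31.4% of all genes were called, and members called below 4, where 17.6% were. The difference fell in 17 of the 29 members and rose in 11. For Col2a1 the intron level near exons was 65.2% and the difference 7.38 points, and for Col18a1 the difference was 7.31. Col1a1 reversed, to -5.09 points, and so did Col14a1 (from 25.1 to -3.44 points), Col26a1 (to -9.36) and Col19a1 (to -0.357). Other members went the opposite way, with Col15a1 rising from -0.0977 to 20.4 points, Col22a1 from 6.63 to 13.0 and Col9a1 from -7.63 to 2.99. Intron cytosines of members within 150 bases of a coding exon averaged 68.7% (920 cytosines), and those from 150 to 500 bases 61.7%.

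**Figure D2:**
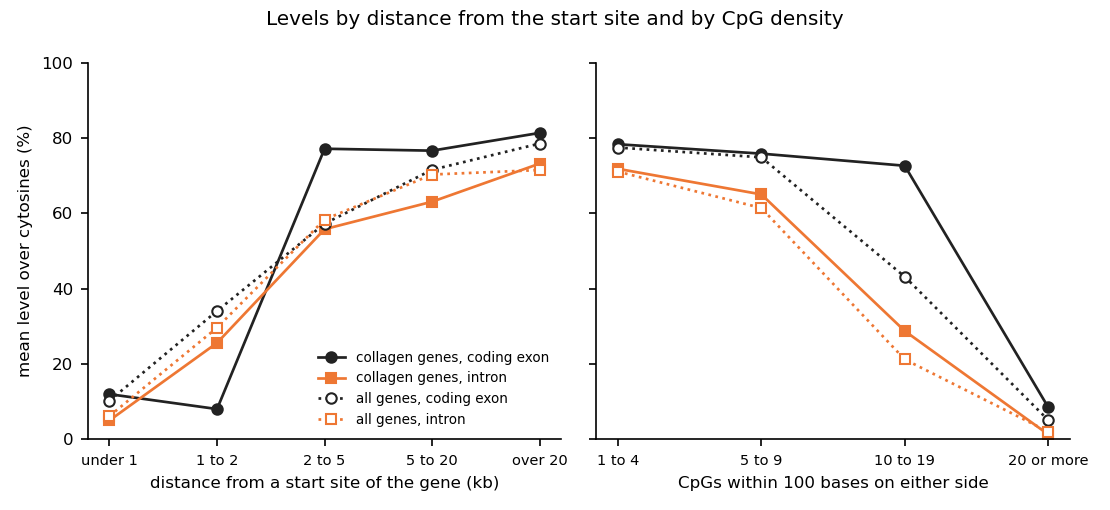
Mean level over cytosines (%) of coding exons (circles) and introns (squares) in collagen genes (solid lines, filled) and in all autosomal genes (dotted, open), by distance from the nearest start site of the gene in kb and by the number of CpGs within 100 bases on either side. In collagen genes the coding exons stay at 72.7% where 10 to 19 CpGs lie within 100 bases, and the introns there are at 28.7%.

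As the plot by distance and CpG density shows, exons and introns of the members parted most at intermediate density. Where 1 to 4 CpGs lay within 100 bases of the cytosine, exons averaged 78.4% and introns 71.9%. With 10 to 19 CpGs the exons were at 72.7% (300 cytosines of 21 genes) and the introns at 28.7% (373 cytosines of 19 genes). Over all genes the levels in that class were 43.2% and 21.2%. With 20 or more, exons were at 8.50% and introns at 1.26%. Cytosines of 1 gene share a level, and these values were not tested.

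The coding sequence of the members has its own composition. It held 57.8% G and C against 51.9% in the coding sequence of all genes, yet CpGs were scarcer, with a median observed-over-expected ratio of 0.306 against 0.411. The libraries covered 14.7% of its CpG cytosines and 5.10% of those in introns (12.7% and 4.85% over all genes), so each region is seen only in part. A covered coding CpG stood before a glycine codon in 17.5% of cases, against 10.01% over all genes, and these averaged 81.5% over 260 cytosines. A proline codon that ends in CG made up 14.1% against 7.96%, at 78.1%. Coding CpGs inside triplet repeats averaged 80.1% (571 cytosines of 37 genes) and those outside 69.1% (913 cytosines of 35 genes). Beyond 2 kb from start sites the values were 80.3% and 79.6%. Those kinds of coding sequence lay close together there. Within the repeats the levels were 78.3% for a C in the glycine codon, 81.7% in the X codon and 80.04% in the Y codon. Over all genes, coding CpGs beyond 2 kb averaged 72.2%.

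Promoters, from 1000 bases upstream to 100 bases downstream of each start site, were covered in 23 members, 18 of them with at least 5 cytosines. Their average was 15.7% ± 0.921 (SD over 8 libraries), against 9.45% over all genes, and their median was 2.95% against 1.69%. The mean was carried by a few methylated promoters. Upstream stretches of 200 bases, chosen within each promoter as those with the most covered cytosines, are shown from GRCm38 on the strand of the gene with CpGs in capitals, for a pair of methylated promoters and an unmethylated one.
Col6a6: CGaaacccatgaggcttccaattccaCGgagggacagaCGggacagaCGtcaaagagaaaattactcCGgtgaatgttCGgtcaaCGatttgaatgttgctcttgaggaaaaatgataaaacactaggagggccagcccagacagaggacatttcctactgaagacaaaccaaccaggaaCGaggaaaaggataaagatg
Col9a1: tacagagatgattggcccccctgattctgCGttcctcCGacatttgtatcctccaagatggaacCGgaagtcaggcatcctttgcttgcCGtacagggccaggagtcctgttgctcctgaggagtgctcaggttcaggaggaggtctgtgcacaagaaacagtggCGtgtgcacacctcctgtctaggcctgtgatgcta
Col25a1: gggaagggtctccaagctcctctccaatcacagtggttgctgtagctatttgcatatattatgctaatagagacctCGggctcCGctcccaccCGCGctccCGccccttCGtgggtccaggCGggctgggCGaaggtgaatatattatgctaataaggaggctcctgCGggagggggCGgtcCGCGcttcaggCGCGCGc
They lie at chr9:105810440-105810639 (minus strand), chr1:24176610-24176809 (plus) and chr3:130180631-130180830 (plus). The stretches of Col6a6 and Col9a1 hold 8 and 5 CpGs, and that of Col25a1 holds 15. They differ in position, since those of Col6a6 and Col9a1 lie 792 to 991 and 801 to 1000 bases before a start site and that of Col25a1 lies 15 to 214 bases before it. In the 250 bases before the start sites listed by RefSeq, which hold 33 of the 42 members, the median number of CpGs was 9.5 in collagen genes and 6.0 over all entries, and 92.1% of all entries had at least 1.

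Col6a6, a chain of beaded filaments, had the most methylated promoter, 90.7% over 14 cytosines. The 9 cytosines upstream of its inner start site, all within the printed stretch, were at 93.6%, from 91.5% to 95.0% over the libraries, and no other cytosine of that promoter was covered. The 5 of its outer start site were at 85.5%. Col9a1 followed at 72.4%, with 74.6% over 16 cytosines at the upstream start and 37.7% at the single covered cytosine of the inner start. Col6a5 was at 53.995% over 5 cytosines, Col26a1 at 29.6% over 34 and Col9a3 at 5.13% over 11. A pair of promoters with fewer cytosines also stood high, Col18a1 at 73.1% over 4 and Col3a1 at 33.3% over 3.

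Among promoters with at least 5 cytosines the lowest were those of Col23a1 (0.544%), Col25a1 (0.740%), Col4a2 (1.23%), Col12a1 (1.31% over 86 cytosines) and Col5a3 (1.41%). With fewer cytosines, Col15a1 was at 0% over 1 and Col1a2 at 0.986% over 2. Those of Col23a1 and Col25a1 belong to transmembrane members whose exons lay below their introns. Col13a1, another such member, was at 3.27%, above the members' median of 2.95%. Members with exons above introns also had low promoters, among them Col12a1. Col4a1 and Col4a2 are transcribed away from each other from 1 shared promoter, as are Col4a3 and Col4a4, so their promoter cytosines are partly the same. The promoters of Col4a1, Col4a3 and Col4a4 were at 2.07%, 2.64% and 1.98%. Arsenic replicate 2 stood at 12.8% at Col4a1 and 5.73% at Col4a2, where the other libraries reached at most 1.21% and 1.33%. The places of both genes among the lowest promoters depend on that library. Col1a1 was at 4.16% over 18 cytosines and Col2a1 at 1.83% over 11.

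The comparison of the arsenic with the control group asked whether exposure in the womb went with other levels in the offspring's cells. The introns of collagen genes were lower in the arsenic group on average, although limma called 0 member regions. Of the 40 introns 29 were lower, where 62.8% of all introns were. The mean intron level over 40 genes was 64.0%, 64.0%, 64.0% and 63.9% in the control libraries and 63.5%, 63.2%, 63.1% and 63.7% in the arsenic libraries, a difference of -0.592 points. The groups did not overlap. They overlapped with a coverage of at least 20, with levels weighted by coverage or with both strands summed, where the difference was -0.754, -0.739 and -0.654 points. Over all genes introns differed by -0.351 points and the groups overlapped. Coding exons differed by -0.218 points (71.7% ± 0.291 and 71.5% ± 0.217, SD, 4 libraries each) and promoters by -0.598 points (16.0% ± 1.04 and 15.4% ± 0.807), with groups that overlapped in both. With all exonic cytosines pooled the exon difference was -0.503 points and the groups did not overlap, and weighted by coverage it was -0.600 points. The promoter difference turned to 0.493 points at a coverage of at least 20. Leaving out single libraries gave -0.342 (without control replicate 2) to -0.123 points (without control replicate 3) in exons. In promoters it gave -0.968 (without arsenic replicate 2) to -0.137 points (without control replicate 1). No p is given for these means, since the genes were chosen with results of these data known.

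**Figure D3:**
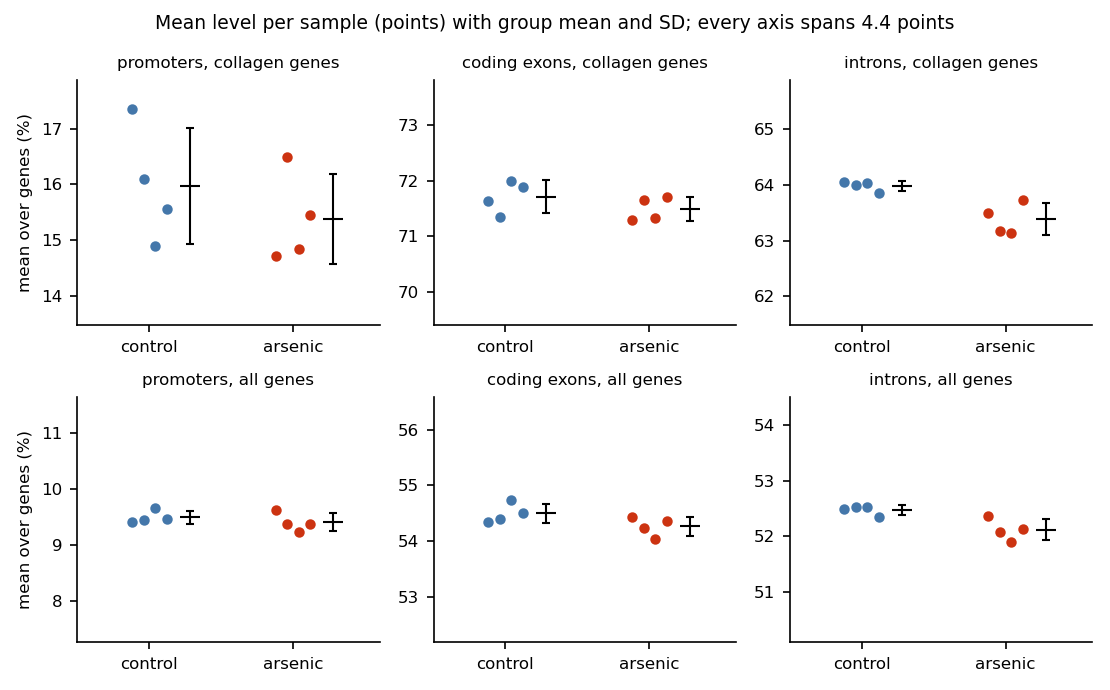
Mean methylation level over genes (%) in promoters, coding exons and introns of collagen genes (top) and of all autosomal genes (bottom), one point per library, with group mean and SD beside the points. Every axis spans the same number of points, and only the intron means of collagen genes do not overlap between groups.

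Of the 95 promoters, coding exons and introns of members with at least 5 cytosines, limma called 0 between groups at an adjusted p of at most 0.05. The smallest adjusted p was 0.861, and 6 regions had an unadjusted p under 0.05. Over all 33294 gene regions limma called 0 as well, and 1719 (5.16%) had an unadjusted p under 0.05. Without the mean-variance trend, on a log2 ratio scale and with the other settings tried, limma also called 0 member regions. The level was lower in the arsenic group in 62 of 95 member regions (65.3%), against 57.8% of all regions.

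In 7 member regions every arsenic library was below every control library, where 2.42% of all gene regions were, and in 0 every arsenic library was above, where 1.03% were. These were 6 of 40 introns (3.17% of all introns), 1 of 18 promoters (1.75% of all promoters) and 0 of 37 coding exons (2.06% of all coding exons). Without control replicate 4 the count of introns was 12, and without any other single library it was 6 to 8. Non-overlap is easier with fewer libraries, and the share of all introns was 6.27% without control replicate 4 and 4.84% to 6.08% without another library. The count was 4 at a coverage of at least 20 (3.48% of all introns), 4 weighted by coverage (2.73%) and 5 with both strands summed (3.18%).

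**Figure D4:**
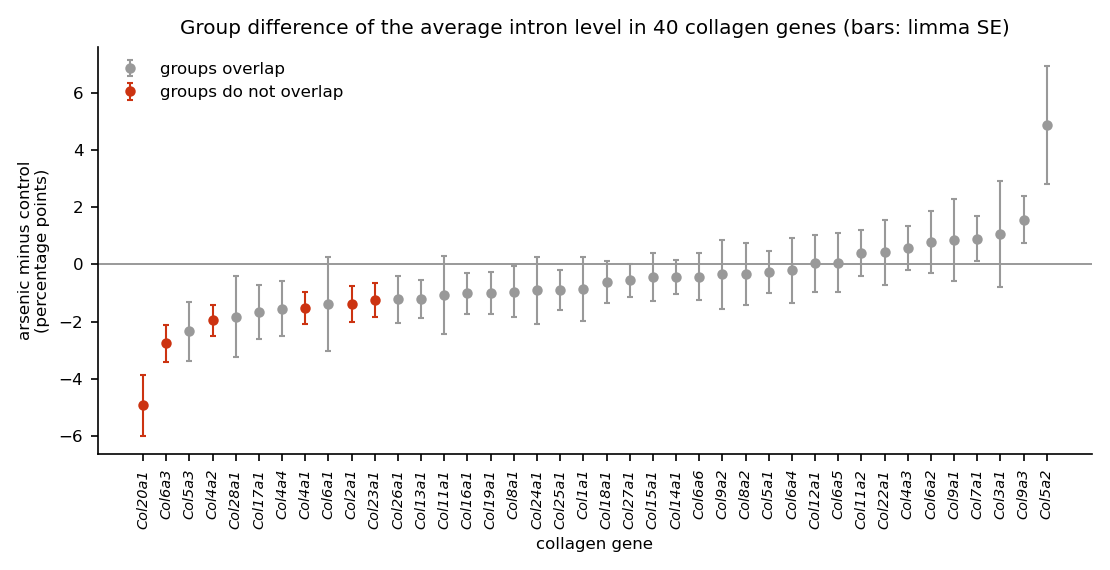
Difference of the average intron level between the arsenic and control groups (percentage points) in the 40 collagen genes with at least 5 covered intronic cytosines, with the standard error from limma. Red points mark the 6 genes whose groups do not overlap, all below 0, and 29 of the 40 points lie below 0, as do 62.8% of all introns.

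The largest of these, at the left of the plot of intron differences, was that of Col20a1, a FACIT member. Its 17 intronic cytosines averaged 75.2%, 75.3%, 75.6% and 75.4% in control and 72.2%, 68.1%, 69.1% and 72.3% in arsenic libraries, a difference of -4.94 points (SE 1.06, limma adjusted p = 0.861). Control libraries were close together and the arsenic ones spread over several points below them. The intron of Col6a3, the large chain of collagen VI, had 65.1%, 66.3%, 65.3% and 64.2% in control and 62.4%, 62.4%, 62.2% and 63.0% in arsenic libraries (-2.75 points, SE 0.649).

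The neighbouring basement membrane genes Col4a2 and Col4a1 had lower introns too. Col4a2 had 75.6%, 75.7%, 74.8% and 75.2% in control and 73.4%, 73.2%, 73.6% and 73.3% in arsenic libraries over 252 cytosines (-1.96 points, SE 0.555). Col4a1 had 65.3%, 65.7%, 64.4% and 64.8% against 63.5%, 63.5%, 63.7% and 63.4% over 191 cytosines (-1.53 points, SE 0.569). In both, the arsenic libraries lay closer together than the control libraries, and below all of them. Col2a1 introns differed by -1.39 points (40.9%, 40.9%, 40.1% and 40.4% against 38.6%, 39.3%, 39.9% and 38.9%), and Col23a1 introns by -1.25 points. The coding exons of Col4a2 overlapped between groups, with 83.0%, 86.4%, 84.9% and 82.7% in control and 84.4%, 83.2%, 84.2% and 83.9% in arsenic libraries.

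The only promoter among the 7 was that of Col9a3, at 19.5%, 4.47%, 3.44% and 4.94% in control and 1.40%, 1.01%, 3.38% and 2.88% in arsenic libraries (-5.92 points, SE 3.32). Control replicate 1 stood far above the rest, and without it the difference was -2.12 points. In that library 55 of 281 calls were methylated, summed over 11 cytosines with a median of 25 reads. A pair of regions was higher in the arsenic group at an unadjusted p under 0.05 without being apart. Coding exons of Col10a1, the chain of hypertrophic cartilage, had 75.5%, 78.5%, 82.3% and 77.5% in control and 80.6%, 88.1%, 85.1% and 81.9% in arsenic libraries (5.44 points, SE 1.95). All 15 of these cytosines lie within another gene as well, and with such cytosines left out the mean exon difference of collagen genes was -0.376 points. The 5 intronic cytosines of Col5a2 differed by 4.90 points (SE 2.07). Both had an adjusted p of 0.908 in limma.

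The exon minus intron difference itself did not change detectably. It averaged 6.84 points ± 0.370 in the control and 7.03 ± 0.150 in the arsenic group (SD, 4 libraries each), and limma called the group effect in 0 of 35 members at an adjusted p of at most 0.05, with 2 at an unadjusted p under 0.05, where 5.48% of all genes were.

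Single cytosines were called as differentially methylated (DMCs) on counts pooled within groups, with q at most 0.01 and at least 10 points. Of the members' 6359 cytosines 27 (0.425%) were hypoDMCs, against 0.323% of all cytosines, and 12 (0.189%) were hyperDMCs, against 0.228%. They lay in 23 genes. Coding exons held 15 (10 hypoDMCs), or 0.998% of their cytosines against 0.706% over all genes, and introns held 21 (14 hypoDMCs), or 0.495% against 0.516%. Untranslated exons held 2 (0.763% against 0.431%) and promoters 1 (0.284% against 0.215%). In 14 of the 39 the groups did not overlap, where they did not in 44% of all DMCs. The test on pooled counts takes no account of the spread between libraries. With overdispersion scaling and an F test the number of DMCs among members was 0, and with limma on log2 ratios it was 0 as well, with 365 cytosines (5.74%) at an unadjusted p under 0.05 against 5.11% of all cytosines. Leaving out single libraries gave 29 to 47 DMCs, of which 17 to 27 were among the 39. Shares over all cytosines are not given for these settings, so the counts do not set members against the genome.

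The CpGs that carried the largest differences are shown with their surroundings on the strand of the gene, in GRCm38. The first line is the whole coding part of the first coding exon of Col11a2 (chr17:34039655-34039736), a fibrillar chain of cartilage and the inner ear, with all its CpGs in capitals. In the others only the CpG of the DMC is in capitals, at chr8:11374882, chr11:94948712, chr9:105777697 and chr19:47662735.
Col11a2: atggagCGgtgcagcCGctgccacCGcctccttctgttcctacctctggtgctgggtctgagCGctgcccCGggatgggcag
Col4a2: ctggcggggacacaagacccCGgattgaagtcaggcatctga
Col1a1: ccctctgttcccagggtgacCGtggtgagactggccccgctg
Col6a6: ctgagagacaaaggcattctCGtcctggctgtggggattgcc
Col17a1: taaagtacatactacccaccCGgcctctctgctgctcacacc

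The Col11a2 exon held 3 hypoDMCs within its first 3 CpGs, 523 to 541 bases from the start site. The first, at chr17:34039661, was at 74.1%, 77.8%, 25.6% and 36.4% in control and 18.8%, 11.1%, 36.4% and 27.3% in arsenic libraries (-28.2 points in pooled counts, q = 0.00564), so that the groups overlapped. The third, at chr17:34039679, was at 50%, 52.9%, 36.8% and 30% in control and 6.25%, 28.6%, 18.2% and 9.09% in arsenic libraries (-27.3 points). It rested on 10 to 38 reads a library. Over the 10 covered cytosines of this exon the mean was 46.7%, 42.9%, 36.8% and 42.2% in control and 26.0%, 34.2%, 29.4% and 32.2% in arsenic libraries, a difference of -11.7 points, and the groups did not overlap. This exon was picked for its DMCs, so the mean is a description.

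**Figure D5:**
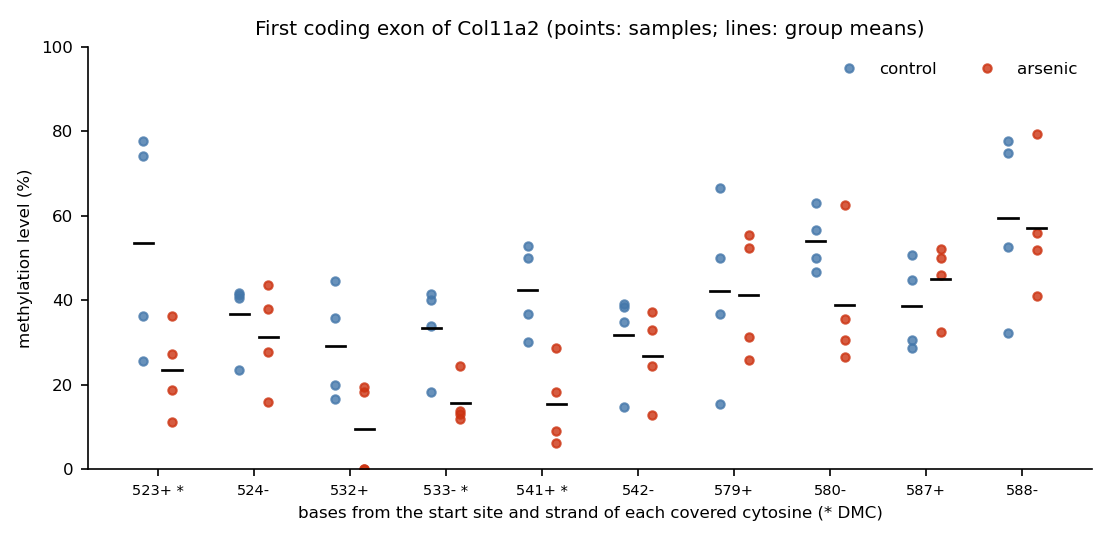
Methylation level (%) of the 10 covered cytosines in the first coding exon of Col11a2, by distance from the start site in bases and strand, in control (blue) and arsenic (red) libraries, with group means as lines. The 3 DMCs, marked with a star, lie among the first 6 cytosines. The groups overlap at every cytosine except the DMC at 541 bases.

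Both strands of a CpG were counted as separate cytosines, and the plot of the Col11a2 exon shows how they differed. At the first and the third CpG the plus strand differed by -30.1 and -26.9 points (means of libraries) and the minus strand by -5.55 and -4.99 points. At the second CpG both strands were lower, by -19.8 and -17.6 points. Among all members' DMCs the other strand was covered for 28 of 39. It moved the same way in 16 and the opposite way in 12, and it moved by at least 10 points the same way in 3.

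Among the 3 largest hypoDMCs, the one outside Col11a2 was intronic in Col4a2 (chr8:11374882), at 95.0%, 94.4%, 100% and 93.3% in control and 38.5%, 77.3%, 63.3% and 84.2% in arsenic libraries (-27.9 points). The groups did not overlap. The next in size were hypoDMCs of Col5a3 (-25.1 points), Col5a1 (-23.5), Col15a1 (-23.0) and Col23a1 (-22.0). The largest hyperDMC was exonic in Col1a1 (chr11:94948712), at 33.3%, 22.2%, 42.9% and 10% in control and 50%, 39.4%, 38.7% and 83.3% in arsenic libraries (31.0 points). Arsenic replicate 4 stood far above the others there, the groups overlapped, and without that library the difference was 16.9 points. Its other strand averaged 51.6% in control and 48.8% in arsenic libraries. HyperDMCs followed in an exon of Col6a6 (28.4 points) and an intron of Col17a1 (25.0 points), both with overlapping groups. The single promoter DMC, in Col7a1, was at 33.3% in control replicate 1 and at most 7.14% in the other libraries, and without that library its difference was -0.724 points.

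The enzymes, chaperones, proteases and receptors that act on collagen were read in the same way, as 46 genes of a fixed list, all of which were matched. They hydroxylate the chains (prolyl and lysyl hydroxylases), fold them (Serpinh1), trim them (Bmp1, Adamts2), cross-link them (lysyl oxidases), bind them (integrins, Ddr1) or degrade them (metalloproteinases). Their promoters averaged 7.03% over 29 genes, beside 15.7% for the collagen genes, and reached 59.7% at P4ha3 and 52.6% at P4ha2. Coding exons averaged 62.5% (35 genes) and introns 54.7% (42 genes). The median exon minus intron difference was 6.33 points over 33 genes, with 16 called above and 9 below, where the shares over all genes were those given above. Colgalt1, which adds galactose to hydroxylysine, had 97.6% in exons and 2.04% in introns, and Loxl1 had 1.85% and 69.7%. Between groups limma called 0 of their regions at an adjusted p of at most 0.05, with 1 of 29 promoters, 3 of 35 coding exons and 1 of 42 introns at an unadjusted p under 0.05, where 5.16% of all regions were.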

How the data were processed

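RRBS libraries of 8 pooled samples were analysed, 4 a group, grouped by their titles. The authors' deposited table gives the counts of reads that kept a C and of reads with a T at each cytosine, not normalized, for cytosines covered in every sample with strands kept separate. Per the labels, reads were trimmed with Trim Galore 0.6.5, aligned to mm10 with Bismark 0.22.3 and joined with methylKit 1.22.0. Of the table's columns of per-sample values 0 were left unused. Here 2130064 cytosines on the 19 autosomes, X and Y were used, at a coverage of at least 10.

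Cytosines were assigned to promoter, then coding exon, UTR and intron, over all curated RefSeq transcripts of a gene. A region's level is the unweighted mean over its cytosines, with a minimum of 5. Group differences and exon minus intron differences were fitted with limma 3.58.1 (R 4.3.3) with a mean-variance trend over all genes, with Benjamini-Hochberg adjustment. DMCs were called by a likelihood-ratio test on pooled counts, which equals logistic regression without overdispersion. Fits were tested on simulated data. Levels were computed in pandas 2.3.3 and numpy 2.4.6 under Python 3.11.15, with scipy 1.17.1 for the likelihood-ratio test, pysam 0.24.0 for sequence and matplotlib 3.10.9 for plots. The members and lists were chosen with earlier results of these data known. Named genes were 10 well-known members, the 5 largest and 5 smallest exon minus intron differences, the 3 largest decreases and 3 largest increases among regions whose groups do not overlap (there was no increase), the 3 largest hypoDMCs and hyperDMCs, the 5 highest and lowest promoters and the ends of ranges. Others named were chosen after their values were seen. Triplet repeats are runs of at least 5 triplets that begin with glycine. Each library was counted as a sample of its own, by its title. The libraries differed by more than independent reads would (mean chi-square per member cytosine 1.96 to 2.10 within groups and 1.96 to 2.13 between groups). Repeated reads of 1 molecule would raise this value too, so it cannot show that the samples are separate. RRBS reads carry no molecular identifiers, so repeated reads of 1 molecule cannot be told apart. Protein sequences were not used here.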

Additional observations from a re-analysis of the deposited data

Results flagged for a closer look

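Among 130 groups of 4 values, 11 held a library far from the other 3, where independent normal values would give about 1 in 20. The groups came from the means over collagen genes, regions of named members and member promoters with at least 5 cytosines. Regions picked for their group difference were also among them. Many promoters lay near 0% and some shared cytosines, so that rate is only a guide. Most of the 11 were promoters. In the arsenic group, arsenic replicate 2 stood at 12.8% at the Col4a1 promoter (others 0 to 0.460%), at 5.73% at the Col4a2 promoter (others 0 to 0.546%) and at 4.37% at the Col4a4 promoter (others 0.889% to 1.33%). In that library 60 of 473 calls at Col4a1 were methylated, summed over 15 cytosines with a median of 32 reads. The cytosines of Col4a1 and Col4a2 are partly the same. Arsenic replicate 4 stood at 10.3% at the Col5a1 promoter (others 0.455% to 1.02%). There 46 of 469 calls were methylated, summed over 20 cytosines with a median of 21 reads. In the control group, control replicate 1 stood at 19.5% at the Col9a3 promoter (others 3.44% to 4.94%) and at 26.3% at the Col7a1 promoter (others 1.31% to 4.15%). At the Col6a6 promoter control replicate 1 was at 93.6% (others 88.8% to 89.5%) and arsenic replicate 3 at 89.5% (others 91.5% to 91.8%). At the Col23a1 promoter arsenic replicate 3 was at 1.59% and the others at 0%. In coding exons, arsenic replicate 4 was at 88.7% in Col1a2 (others 83.6% to 84.2%, over 9 cytosines) and control replicate 2 at 77.6% in Col12a1 (others 72.0% to 72.7%, over 12 cytosines). What sets these libraries apart was not tested.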

How the results depend on the processing

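The exon minus intron difference of collagen genes stayed above 0 in every setting tried. It was 7.49 points at a coverage of at least 20, 6.65 weighted by coverage, 7.35 with both strands summed, 7.48 and 8.71 with at least 3 and 10 cytosines, 8.64 with all cytosines pooled, 10.6 without 2 kb around start sites and 1.05 with introns near exons only. Members called in either direction numbered 18, and 10 with introns near exons only (6 above), where fewer genes were tested, and those below numbered 2 without 2 kb around start sites. Members reversed in sign numbered 6 of 29 with introns near exons only, 5 of 34 without start sites, 5 of 35 at a coverage of at least 20 and 3 of 35 weighted by coverage. With introns near exons only these were Col1a1 (-5.09), Col9a1, Col14a1, Col15a1, Col19a1 and Col26a1. Without start sites they were Col23a1 (14.3), Col5a1 (7.09), Col13a1 (19.4), Col11a2 and Col15a1. At a coverage of at least 20 they were Col23a1 (15.1), Col16a1 (1.33), Col7a1 (0.620), Col5a3 and Col15a1. Weighted by coverage they were Col7a1 (5.20), Col5a3 and Col15a1. The cause was not tested. Between groups, the exon difference was -0.600 points when weighted by coverage, the intron difference -0.913 without start sites and -0.894 with all cytosines pooled, and the promoter difference turned to 0.493 at a coverage of at least 20. DMCs numbered 22 with both strands summed, 0 with overdispersion scaling and 0 with limma. Overdispersion scaling and limma called 0 over all cytosines too, and the share over the genome with both strands summed is not given. Introns with groups apart numbered 6 to 12 without single libraries (4.84% to 6.27% of all introns). With the replicate number as a block (replicate block) limma called 0 member regions, with 5 instead of 6 at an unadjusted p under 0.05. Deviations of same-numbered libraries had correlations of -0.003 to 0.008, within the range of the other pairs (-0.015 to 0.020). Such values cannot show whether pools shared a litter or a batch, and the main fit left libraries unpaired. Of the values recomputed for single named genes, which did not take in every gene listed here, 351 kept direction and side of the threshold. Of the rest 8 became weaker, 4 stronger and 8 reversed. Some of these values were group differences of regions picked for being apart or for an unadjusted p under 0.05. No setting called such a region, and leaving out a library cannot turn the sign where groups were apart. Their part of the count was therefore largely fixed beforehand. At a median coverage of 31 to 44 single cytosines at intermediate levels are imprecise, and promoters of few cytosines rest on few molecules.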
